A study of Mus musculus with 3 samples.

Results

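The platelet-derived growth factor (PDGF) genes of the mouse are 4 ligands, *Pdgfa*, *Pdgfb*, *Pdgfc* and *Pdgfd*, and 2 receptors, *Pdgfra* and *Pdgfrb*. These 6 genes were chosen by symbol, with earlier results of these data known, and each matched 1 of the 32285 genes in the deposited tables. They were described in 3 droplet libraries of single cells from the ascending aorta of male mice at postnatal day 45 (P45) on the C57BL/6J background. The WT library pooled 3 WT littermates. The mgR library pooled 3 *Fbn1*mgR/mgR mice, which carry a hypomorphic allele of the fibrillin-1 gene and develop dissecting thoracic aortic aneurysm (TAA), a model of Marfan syndrome. The mgR-LOS library pooled 4 *Fbn1*mgR/mgR mice that drank losartan, a blocker of the angiotensin II type 1 receptor, at 0.6 g/L from P16. The labels do not say whether the WT and mgR mice drank vehicle, and mutants of the study were picked for tissue work after ultrasound of the aorta. Each condition was a single library of pooled mice, so no test between conditions was possible, and mice within a pool could not be told apart.

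PDGF ligands are secreted as dimers and bind receptor tyrosine kinases on neighboring cells. PDGF-A acts through PDGFRα, PDGF-B through both receptors, PDGF-C mainly through PDGFRα and PDGF-D mainly through PDGFRβ. PDGF-C and PDGF-D are released in a latent form and need proteolysis to become active. In vessels, PDGF-B from ECs recruits pericytes and SMCs that carry PDGFRβ, while PDGFRα is best known as a receptor of fibroblasts.

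The libraries held 83338726 (WT), 123956320 (mgR) and 121436873 (mgR-LOS) unique molecular identifiers (UMIs, counts of captured transcripts) in 7858, 10657 and 14663 barcodes. Of these barcodes 5361, 8076 and 12721 passed the filters, with a median of 13636, 12410.5 and 8334 UMIs. *Fbn1*, the targeted gene, was at 361, 150.1 and 117 counts per 1000000 UMIs (CPM) over the barcodes that passed. Only 22 barcode sequences were shared by WT and mgR, 29 by WT and mgR-LOS and 46 by mgR and mgR-LOS. Barcodes were put in classes by lists of marker genes, and those reaching the gates of several classes were set apart as mixed (54, 238 and 436). Reaching both the macrophage gate and the monocyte and dendritic cell gate counted as macrophage-like only. The classes held 3671, 3212 and 8015 SMC-like barcodes, 1277, 2329 and 2986 fibroblast-like, 108, 224 and 179 EC-like, and 87, 939 and 544 macrophage-like barcodes. SMC-like barcodes had a median of 14356, 15002 and 8535 UMIs, so the mgR-LOS cells were sampled less deeply. Levels below are sums of UMIs over a class as CPM, with exact 95% Poisson intervals in parentheses, and ratios carry exact conditional binomial intervals. All intervals cover counting error only, since PCR and the differences between cells and between mice are not in them. UMIs of a gene can gather in few barcodes, which the intervals do not take into account. Values in a row are in the order WT, mgR, mgR-LOS, and levels were compared between classes and libraries but not between genes.

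**Figure D1:**
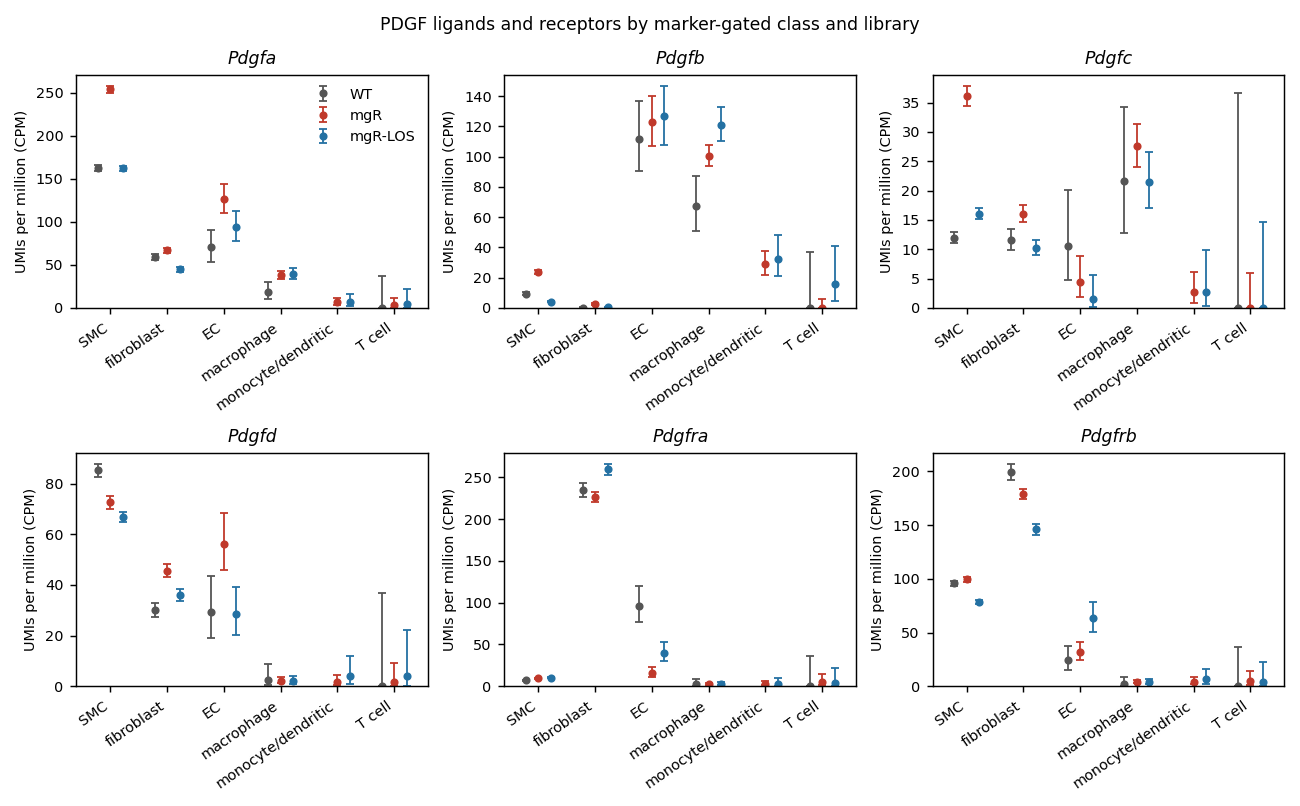
Level of each PDGF gene (CPM, linear axis from 0) in 6 marker-gated classes of the WT, mgR and mgR-LOS libraries, 1 point per library with its exact 95% Poisson interval. A class of fewer than 20 barcodes in a library is not drawn. SMC-like barcodes of the mgR library stood above both other libraries for *Pdgfa* (254 CPM), *Pdgfb* (23.6) and *Pdgfc* (36.2), while *Pdgfra* was highest in fibroblast-like barcodes of every library.

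*Pdgfa*, the ligand of PDGFRα, was detected in SMC-like, fibroblast-like, EC-like, mesothelial-like and Schwann-like barcodes, and in macrophage-like ones at 18.0, 37.8 and 39.7 CPM. In SMC-like barcodes it was at 162 CPM (159 to 166), 254 (249 to 258) and 162 (159 to 165). Only the mgR library stood apart, and the ratio of mgR-LOS to WT was 0.996 (0.969 to 1.02). The ratio of mgR to WT was 1.56 (1.52 to 1.61) and that of mgR-LOS to mgR 0.637 (0.621 to 0.653). After each barcode was thinned to 1000 UMIs, 15.0%, 20.6% and 14.6% of SMC-like barcodes carried a *Pdgfa* UMI, against 82.5%, 89.9% and 67.2% without thinning. The unthinned shares followed depth, and the thinned ones kept the order of the levels. For comparison, no T cell-like barcode of WT (20 barcodes) carried a *Pdgfa* UMI, where 3 UMIs would be 29.9 CPM, and T cell-like barcodes of mgR and mgR-LOS held 2 and 1 UMIs.

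Outside the SMCs, *Pdgfa* was at 59.0 (55.1 to 63.1), 66.8 (63.9 to 69.9) and 44.6 CPM (42.0 to 47.3) in fibroblast-like barcodes. SMC-like levels exceeded these by 2.75, 3.80 and 3.63 times. In EC-like barcodes it was at 70.5 (53.8 to 90.8), 126 (110.5 to 144) and 93.4 CPM (77.5 to 112), so mgR was again the highest of the 3 libraries, 1.79 times WT (1.34 to 2.42). Luminal EC-like barcodes (56, 100 and 92), which carry *Vwf*, *Cytl1*, *Edn1*, *Bmp4* or *Clu*, genes of the aortic lining, held 83.8 (59.6 to 115), 172 (144 to 204) and 70.4 CPM (51.3 to 94.2) of *Pdgfa*, so mgR was 2.05 times WT there (1.42 to 3.01). Capillary EC-like barcodes held 46.9, 64.6 and 151 CPM, with mgR-LOS the highest. Lymphatic EC-like barcodes held 85.8, 106 and 94.4 CPM, with overlapping intervals. The few Schwann-like barcodes (9, 16 and 27), peripheral glia of the nerves in the wall, had the highest level of *Pdgfa* of any class, at 831 (533 to 1237), 663 (494 to 872) and 617 CPM (462 to 807). The Schwann-like level was 5.12, 2.61 and 3.82 times the SMC-like one, and the 3 libraries did not differ beyond counting error.

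*Pdgfb* encodes the ligand by which endothelium recruits mural cells, and its level was high in EC-like and macrophage-like barcodes and in the few Schwann-like ones (104, 91.0 and 139.7 CPM, from 3, 7 and 12 UMIs). In EC-like barcodes it was at 112 (90.4 to 137), 123 (107 to 140.4) and 127 CPM (108 to 147), with a ratio of mgR to WT of 1.10 (0.863 to 1.42). The 3 libraries did not differ beyond counting error, and the interval allows a level in mgR of up to 1.42 times that of WT. The EC-like barcode with the most *Pdgfb* held 10 of the 95, 19 of the 221 and 34 of the 164 UMIs. Within the endothelium the capillary-like barcodes, which carry *Gpihbp1*, *Cd36*, *Rgcc*, *Fabp4* or *C1qtnf9*, led at 349 (260.3 to 457), 233 (182 to 293) and 317 CPM (243 to 405). Luminal barcodes held 79.5, 139 and 98.5 CPM, and lymphatic ones 42.9, 35.8 and 43.8. The capillary level was 4.38, 1.68 and 3.22 times the luminal one, so the order of these 2 was the same in every library, from 21, 40 and 28 capillary barcodes.

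In macrophage-like barcodes *Pdgfb* was at 67.2 (50.8 to 87.3), 100.4 (93.7 to 108) and 121 CPM (110.3 to 133). The monocyte and dendritic cell list summed to 227, 427 and 292 CPM in these barcodes, and its part in the *Pdgfb* level was not tested. Macrophages with genes of the resident type (*Folr2*, *F13a1*, *Mrc1*, *Cd163*) held 61.8, 74.5 and 71.5 CPM, and those without held 76.9 (48.8 to 115), 147 (133 to 161) and 233 (206 to 262). From WT to mgR the ratio was 1.21 (0.844 to 1.78) with the list and 1.91 (1.25 to 3.04) without it. The macrophages without the list had 1.97 times (1.71 to 2.26) the resident level in mgR and 3.25 times (2.69 to 3.94) in mgR-LOS. *Pdgfc* had the opposite arrangement. It was at 24.4, 40.0 and 30.2 CPM with the resident list and at 16.7, 5.43 and 1.72 without it, a ratio of 7.37 (4.43 to 13.1) in mgR and 17.6 (4.72 to 148) in mgR-LOS, the latter from 2 UMIs in the group without. In WT both genes rested on 29 barcodes without the list, and the interval of each ratio held 1.

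**Figure D2:**
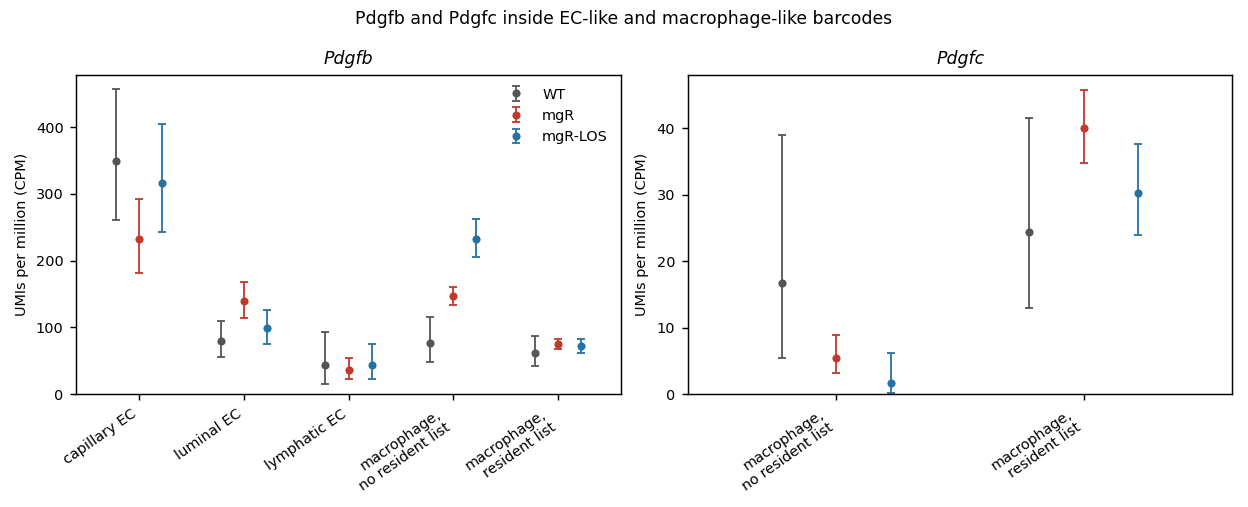
Level (CPM, from 0) of *Pdgfb* in subsets of EC-like barcodes, and of *Pdgfb* and *Pdgfc* in macrophage-like barcodes with and without the resident-type list, 1 point per library with its exact 95% Poisson interval. *Pdgfb* was at 233 to 349 CPM in capillary EC-like barcodes, and macrophages without the resident list reached 147 and 233 CPM in mgR and mgR-LOS while *Pdgfc* there was at 5.43 and 1.72.

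SMC-like barcodes held a lower level of *Pdgfb* than ECs, at 9.35 (8.54 to 10.2), 23.6 (22.2 to 25.0) and 4.12 CPM (3.66 to 4.61). The mgR library was 2.52 times WT (2.26 to 2.81), and mgR-LOS was at 0.175 of mgR (0.153 to 0.199) and at 0.440 of WT (0.380 to 0.510). All 3 libraries therefore differed beyond counting error, with mgR-LOS the lowest. After thinning, 1.04%, 1.93% and 0.362% carried a UMI. The EC and macrophage lists were summed in the same barcodes. All 10 EC genes and all 8 macrophage genes were detected in SMC-like barcodes of each library, at 29.3, 21.1 and 26.8 CPM and at 5.91, 25.7 and 26.7 CPM. SMC-like barcodes without any UMI of the EC, macrophage, monocyte or dendritic cell, neutrophil or platelet lists held *Pdgfb* at 9.53, 25.6 and 3.70 CPM.

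In fibroblast-like barcodes *Pdgfb* was near 0, with 3, 69 and 12 UMIs, or 0.209, 2.36 and 0.483 CPM. Of the 69 UMIs of mgR, 18 lay in 1 barcode. Of the same 69, 46 lay in the 382 barcodes that reached the limit of none of the fibroblast subset lists, at 10.3 CPM (7.52 to 13.7). The macrophage list summed to 8.44, 40.9 and 31.1 CPM and the neutrophil list to 0.767, 13.1 and 1.13 CPM in fibroblast-like barcodes, and the fibroblast-like barcodes without UMIs of other lists held 0, 0.534 and 0.338 CPM. The level of *Pdgfb* in mgR fibroblasts was thus lower where markers of other cells were absent.

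The remaining ligands, *Pdgfc* and *Pdgfd*, encode the latent forms with a CUB domain. *Pdgfa* lies on chromosome 5 from 138976014 to 138997370 on the minus strand (ENSMUSG00000025856), *Pdgfb* on chromosome 15 from 79995874 to 80014977 on the minus strand (ENSMUSG00000000489), *Pdgfc* on chromosome 3 from 81036416 to 81214040 on the plus strand (ENSMUSG00000028019) and *Pdgfd* on chromosome 9 from 6168584 to 6378850 on the plus strand (ENSMUSG00000032006), in GRCm38. Bases before a RefSeq start of 3 of the ligand genes are shown because *Pdgfa* and *Pdgfc* were both higher in mgR SMCs and *Pdgfd* was not. They come from RefSeq on GRCm38.p6, 5′ to 3′ on the strand of the gene, with capitals marking a CArG box, the element that serum response factor binds in many SMC genes. For *Pdgfa* (chr5:138995038-138995194, 157 bases) only bases clear of its annotated exons are given, and they lie inside the span of the gene given above, since GENCODE places its first base further upstream, while *Pdgfc* (chr3:81036166-81036415) and *Pdgfd* (chr9:6168236-6168485) are given as 250 bases.
Pdgfa: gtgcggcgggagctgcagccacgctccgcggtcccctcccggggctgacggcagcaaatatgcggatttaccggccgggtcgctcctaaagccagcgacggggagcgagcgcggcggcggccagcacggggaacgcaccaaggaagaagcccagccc
Pdgfc: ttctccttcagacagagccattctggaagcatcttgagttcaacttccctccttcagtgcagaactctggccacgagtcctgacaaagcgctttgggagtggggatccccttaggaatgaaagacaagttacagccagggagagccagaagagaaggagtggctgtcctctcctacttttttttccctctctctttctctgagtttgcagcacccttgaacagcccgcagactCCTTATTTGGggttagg
Pdgfd: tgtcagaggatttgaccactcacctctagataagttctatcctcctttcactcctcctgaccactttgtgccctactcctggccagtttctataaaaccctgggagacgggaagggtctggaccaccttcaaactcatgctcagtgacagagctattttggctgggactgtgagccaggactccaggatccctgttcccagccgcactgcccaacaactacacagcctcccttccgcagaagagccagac
A CArG box, searched on both strands, was present once in the *Pdgfc* window and in 1.47% of 32851 promoter windows of 250 bases. The GC box GGGCGG, searched on both strands, was in 32.7% of windows and in both windows of *Pdgfa*, which had 1 and 2 matches and of which only a part is printed. GCGGGGGCG, found in 2.57% of windows, and TGANTCA, found in 6.75%, had no match in these windows. A match is a description of the letters only.

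*Pdgfc* in SMC-like barcodes was at 11.9 (11.0 to 12.9), 36.2 (34.5 to 37.9) and 16 CPM (15.1 to 17.0). This was the largest ratio of mgR to WT of the 4 ligands in SMCs, 3.03 (2.76 to 3.33), and mgR-LOS was at 0.443 of mgR (0.411 to 0.477) and 1.34 times WT (1.22 to 1.48). Thinned shares were 1.09%, 3.43% and 1.46%. In fibroblast-like barcodes *Pdgfc* was at 11.6 (9.88 to 13.5), 16 (14.6 to 17.5) and 10.2 CPM (9.0 to 11.6). SMC-like and fibroblast-like levels were alike within counting error in WT (ratio 1.03, lower limit 0.867), whereas in mgR the SMC-like level was 2.26 times the fibroblast-like one. The adventitial fibroblasts with *Pi16*, *Dpp4*, *Sema3c* or *Cd55* (418, 601 and 783 barcodes) held 9.74 (7.02 to 13.2), 27.4 (23.9 to 31.3) and 17.7 CPM (14.7 to 21.1) of *Pdgfc*. Their ratio of mgR to WT was 2.82 (2.02 to 4.02), against 1.13 (0.773 to 1.64) in the *Comp* fibroblasts. *Pdgfc* in the other fibroblast-like barcodes is not given here, so the difference cannot be called particular to the *Pi16* fibroblasts.

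*Pdgfd* did not share the SMC pattern of the other ligands. In SMC-like barcodes it was at 85.3 (82.8 to 87.8), 72.6 (70.2 to 75.0) and 66.9 CPM (65.0 to 68.8), so WT was the highest. The ratio of mgR to WT was 0.851 (0.814 to 0.890). In fibroblast-like barcodes *Pdgfd* was at 30.1 (27.3 to 33.0), 45.7 (43.3 to 48.2) and 35.9 CPM (33.6 to 38.3), with mgR the highest at 1.52 times WT (1.36 to 1.70). Within the *Pi16* and *Gdf10* subsets that ratio was 1.03 in each, with intervals from 0.848 to 1.26 and from 0.691 to 1.60. The fibroblast subsets also differed in number between libraries, the *Gdf10* subset from 43 barcodes in WT to 444 in mgR and 405 in mgR-LOS, and it held more *Pdgfd* (63.2, 65.1 and 45.4 CPM) than the *Comp* subset (12.6, 18.0 and 18.3). The *Comp* levels of WT and mgR rested on 41 and 55 UMIs. *Pdgfd* in fibroblast-like barcodes of no subset or of several is not given here. The part of the subset numbers in the fibroblast-like ratio was not tested. In luminal EC-like barcodes *Pdgfd* was at 36.5 (21.3 to 58.5), 107 (85.1 to 133) and 32.8 CPM (20.3 to 50.2), a ratio of mgR to WT of 2.93 (1.72 to 5.28). Lymphatic EC-like barcodes held 0, 4.88 and 13.5 CPM, where 0 UMIs in WT allow up to 26.4 CPM.

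**Figure D3:**
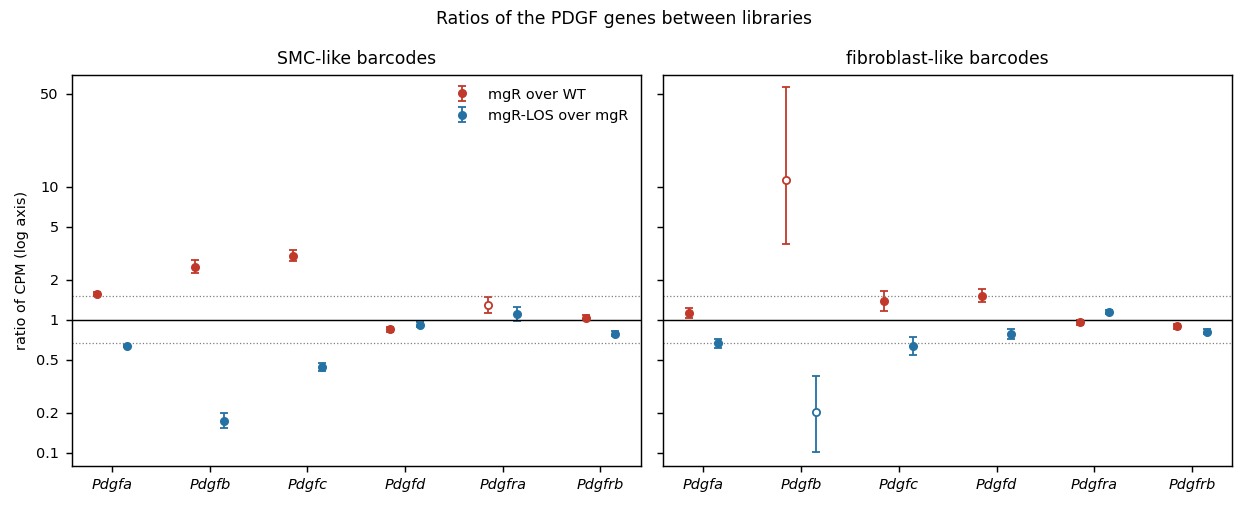
Ratio of mgR to WT and of mgR-LOS to mgR (log axis) for each PDGF gene in SMC-like and fibroblast-like barcodes, with exact conditional 95% intervals. Open circles mark genes under 10 CPM in both libraries and dotted lines mark 1.5 and 0.667; in SMC-like barcodes *Pdgfa*, *Pdgfb* and *Pdgfc* lay above the upper line for mgR to WT (1.56, 2.52 and 3.03) and below the lower line for mgR-LOS to mgR (0.637, 0.175 and 0.443).

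To set these ratios against the whole transcriptome, a gene was counted when it reached 10 CPM in either library and differed by at least 1.5-fold. From WT to mgR, 3 of the 5 PDGF genes that reached 10 CPM in SMC-like barcodes were counted as higher (*Pdgfa*, *Pdgfb* and *Pdgfc*), beside 5.12% of 7632 genes, and none of the 5 as lower, beside 3.98%. From mgR to mgR-LOS, 3 of 6 were lower, the same 3 genes, beside 3.44% of 7679 genes, and 0 were higher, beside 4.19%. The median ratio of the PDGF genes was 1.56, against 0.991 over all genes, for the first contrast and 0.713, against 1.02, for the second. The mgR library enters both contrasts, so they are not independent of each other. *Pdgfb* reached 10 CPM in SMC-like barcodes only in mgR (9.35, 23.6 and 4.12 CPM). It therefore entered both counts and both medians only through the library where it was highest. No p-value stands behind these counts, since they compare single libraries. The 6 genes were also chosen with earlier results of these data known.

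In fibroblast-like barcodes 1 of 5 PDGF genes was higher in mgR than in WT (*Pdgfd*), beside 6.69% of 8426 genes, and none lower, beside 4.25%. From mgR to mgR-LOS 1 of 5 was lower (*Pdgfc*, 0.638, 0.546 to 0.745), beside 3.54% of 8383 genes, and none higher, beside 3.36%. *Pdgfa* lay at the limit there, at 0.667 (0.619 to 0.718). In EC-like barcodes 2 of 6 were higher in mgR (*Pdgfa* and *Pdgfd*), beside 13.8% of 8994 genes, and 2 were lower (*Pdgfra*, 0.168, 0.106 to 0.259, and *Pdgfc*, 0.421, 0.141 to 1.23, from 9 and 8 UMIs), beside 9.05%. From mgR to mgR-LOS 2 of 5 were higher in EC-like barcodes (*Pdgfra* and *Pdgfrb*), beside 9.43% of 9014 genes, and 1 was lower (*Pdgfd*, 0.508, 0.338 to 0.746), beside 10.6%. *Pdgfc* reached 10 CPM in EC-like barcodes only in WT (10.6 CPM, against 4.45 in mgR). Under the alternative settings the EC-like ratios of *Pdgfra* spanned 0.166 to 0.377 from WT to mgR and 1.52 to 3.80 from mgR to mgR-LOS, and that of *Pdgfc* 0.184 to 0.765 from WT to mgR. In macrophage-like barcodes 1 of 3 was higher in mgR (*Pdgfa*, 2.10, 1.25 to 3.80), beside 13.4% of 7772 genes, and none was lower, beside 6.66%. None of the 3 passed in either direction from mgR to mgR-LOS, beside 5.02% higher and 3.33% lower of 7786 genes. In these 3 classes the shares among so few PDGF genes cannot be read as apart from the background.

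Of the 2 receptors, *Pdgfra* (chromosome 5 from 75152292 to 75198215 on the plus strand, ENSMUSG00000029231) marked the fibroblast-like class. It was at 235 (227 to 243), 226 (221 to 232) and 259.8 CPM (253 to 266), and 21.8%, 20.1% and 22.5% of thinned barcodes carried a UMI. SMC-like barcodes held 7.16 (6.45 to 7.93), 9.24 (8.40 to 10.1) and 10.2 CPM (9.49 to 11.0), so the fibroblast-like level was 32.8, 24.5 and 25.4 times as high. All 8 genes of the fibroblast list were detected in SMC-like barcodes of each library and summed to 3521, 4331 and 3393 CPM, and their part in the SMC-like level of *Pdgfra* was not tested. In the fibroblast subsets *Pdgfra* was highest with *Gdf10* (462, 336 and 393 CPM), lower with *Pi16* (307, 210.2 and 267) and lowest with *Comp* (84.0, 85.6 and 115). Every neighboring pair in that order was apart by counting error in every library, since the *Gdf10* level was at least 1.47 times the *Pi16* level and the *Pi16* level at least 2.31 times the *Comp* level.

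*Pdgfrb* (chromosome 18 from 61045150 to 61085061 on the plus strand, ENSMUSG00000024620) was found in fibroblast-like and SMC-like barcodes alike. In fibroblast-like barcodes it was at 199.7 (192 to 207), 179 (174 to 184) and 146 CPM (141 to 151), and in SMC-like barcodes at 95.7 (93.0 to 98.4), 99.4 (96.6 to 102) and 78.5 CPM (76.4 to 80.5). The fibroblast-like level was 2.09, 1.80 and 1.86 times the SMC-like one. The SMC-like ratio of mgR to WT was 1.04 (0.998 to 1.08), and that of mgR-LOS to mgR was 0.789 (0.759 to 0.821), so WT and mgR SMCs did not differ beyond counting error while mgR-LOS was lower. Thinned shares in SMCs were 8.57%, 9.13% and 7.83%.

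**Figure D4:**
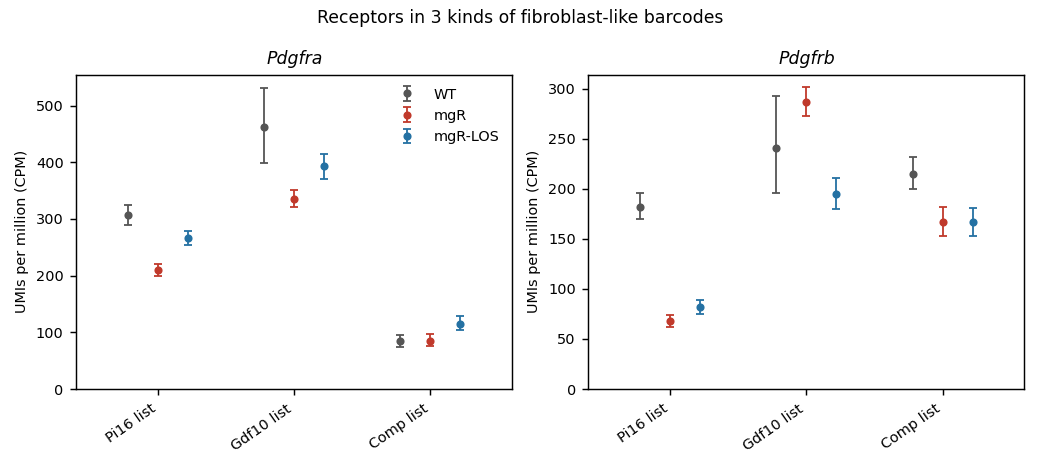
Level of *Pdgfra* and *Pdgfrb* (CPM) in the *Pi16*, *Gdf10* and *Comp* fibroblast subsets of the 3 libraries, with exact 95% Poisson intervals. *Pdgfra* followed the order *Gdf10*, *Pi16*, *Comp* in every library, and *Pdgfrb* in the *Pi16* subset was at 182 CPM in WT but at 67.8 and 81.8 CPM in mgR and mgR-LOS.

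The fibroblast subsets carried *Pdgfrb* differently from *Pdgfra*. In the *Pi16* subset it was at 182 (169.9 to 196), 67.8 (62.2 to 73.8) and 81.8 CPM (75.2 to 88.8), a ratio of mgR to WT of 0.372 (0.332 to 0.415). The *Gdf10* subset was at 241 (196 to 293), 287 (273 to 302) and 195 CPM (179.7 to 211), and the *Comp* subset at 215, 167 and 167. *Pdgfrb* was thus lower than in WT in both *Fbn1*mgR/mgR libraries in the *Pi16* and *Comp* subsets, with the larger difference in *Pi16*. In the *Gdf10* subset mgR was not lower than WT. In the *Pi16* subset *Pdgfra* was also lower than in WT, at 0.686 of it in mgR (0.637 to 0.738). After thinning, 3.83%, 1.5% and 2.43% of *Pi16* barcodes carried both receptors, 21.5%, 17.3% and 22.0% only *Pdgfra* and 12.4%, 6.16% and 5.24% only *Pdgfrb*. Without thinning the shares with both were 56.7%, 40.1% and 35.6% and those with only *Pdgfra* 25.4%, 44.1% and 42.9%, so the order of the libraries depended on the thinning. Across all thinned fibroblast-like barcodes, 4.23%, 3.86% and 3.12% carried both receptors, 17.5%, 16.2% and 19.4% only *Pdgfra* and 13.5%, 11.5% and 10.3% only *Pdgfrb*. Without thinning, 54.0%, 55.3% and 42.2% of fibroblast-like barcodes carried both receptors. Of thinned SMC-like barcodes 0.0273%, 0.125% and 0.0250% carried both, against 6.48%, 7.50% and 4.14% without thinning. Shares with both receptors thus depended strongly on the UMIs kept per barcode. They do not give the share of cells that express both.

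SMC-like barcodes with at least 3 *Vcam1* UMIs (50, 575 and 314) were set beside those with none (3355, 1932 and 6673). *Vcam1* was taken here as a gene of modulated SMCs. The study did not name it, and these barcodes were not matched to its modulated cells. The cut used UMIs not scaled for depth, so it also follows the depth of a barcode, and barcodes in between were left out. In mgR, *Pdgfra* was at 18.6 CPM with *Vcam1* and 5.26 without, a ratio of 3.53, and *Pdgfrb* at 122 and 90.8, a ratio of 1.35. The same order held for *Pdgfra* in WT (13.9 and 6.67 CPM) and in mgR-LOS (28.6 and 8.84). The ligand ratios between these barcodes of mgR were 1.20 for *Pdgfa* (286 against 239 CPM), 1.16 for *Pdgfb* and 1.30 for *Pdgfc* (44.2 against 34.1). *Pdgfd* was lower with *Vcam1* (63.1 against 75.1). In WT and mgR-LOS the ratios were 0.633 and 1.64 for *Pdgfb*, 2.12 and 1.35 for *Pdgfc*, and 1.09 and 1.46 for *Pdgfrb*. These WT ratios rested on 5, 21 and 90 UMIs in barcodes with *Vcam1*, and those of *Pdgfb* and *Pdgfrb* did not differ from 1 beyond counting error. Among SMC-like barcodes with no captured *Vcam1* UMI the ratios of mgR to WT were 1.48 for *Pdgfa*, 2.50 for *Pdgfb* and 2.97 for *Pdgfc*. Such barcodes can still come from cells that express *Vcam1*, and the part of modulated SMCs in these ratios was not tested.

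In the endothelium receptor counts came from few barcodes. *Pdgfra* in EC-like barcodes was at 96.4 (76.7 to 119.7), 16.1 (10.8 to 23.2) and 40.1 CPM (30.0 to 52.6), from 82, 29 and 52 UMIs in 16, 11 and 16 barcodes. These barcodes carried *Pecam1* at 908, 719.7 and 937 CPM, below the 1792, 1412 and 1374 of the other EC-like barcodes. *Cldn5* was also lower in them, at 591, 199 and 154 against 1072, 1195 and 954. *Cdh5*, also of the EC list, was at 349.8, 559 and 413 against 519, 595 and 582, so it differed little in mgR. Of the fibroblast list, *Dcn* was higher in them, at 3856, 4593 and 3999.9 against 962, 696 and 1857. *Col1a1*, of the same list, was lower, at 16.7, 37.9 and 62.9 against 73.9, 87.0 and 98.0, and *Dpt* was at 8.33, 0 and 21.0. *Ahsg* was at 1907, 862 and 1622 and *Postn* at 2132, 1828 and 2650.3. The other EC-like barcodes held *Ahsg* at 58.9, 59.2 and 282 CPM, and *Pecam1* apart, the genes shown with *Pdgfra* were picked with their values in view. Barcodes with a *Pdgfra* UMI were 16 of 108 EC-like barcodes in WT and 11 of 224 in mgR.

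*Pdgfrb* in EC-like barcodes was at 24.7 (15.3 to 37.7), 31.7 (24.0 to 41.1) and 63.3 CPM (50.3 to 78.5). In capillary EC-like barcodes it was at 6.70 (0.170 to 37.4), 90.5 (60.1 to 131) and 206 CPM (148 to 279.7), and in lymphatic ones at 0, 1.63 and 3.37. The pericyte list, 6 genes of cells that sit on capillaries and express *Pdgfrb*, summed to 34.1, 345 and 357 CPM in EC-like barcodes. Of its genes 4, 6 and 6 were detected there. The list was not particular to this class. It summed to 377, 451 and 416 CPM in fibroblast-like and 219.9, 112 and 148 CPM in SMC-like barcodes. Its part in the EC-like *Pdgfrb* level was not tested. Barcodes high in the pericyte list numbered 42 in mgR and 29 in mgR-LOS and held *Pdgfrb* at 409.8 (358 to 467) and 317 CPM (249 to 398), 4.12 and 4.04 times the SMC-like level. They were taken from all barcodes that passed the filters, so some may also count in a class. No WT value is given.

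The share of each gene's UMIs that a class supplied follows both its level and its number of barcodes, and the share of SMC-like barcodes among those in a class was 70.6%, 44.0% and 67.2%. SMC-like barcodes supplied 89.8%, 82.3% and 89.0% of the classed *Pdgfa* UMIs, 76.2%, 70.9% and 77.3% of *Pdgfc* and 90.5%, 70.1% and 83.5% of *Pdgfd*. For *Pdgfb* their part was 75.1%, 48.8% and 30.6%, while macrophage-like barcodes supplied 8.66%, 35.6% and 47.2% and EC-like barcodes 14.7%, 9.57% and 16.9%. Fibroblast-like barcodes held 88.1%, 92.8% and 88.9% of *Pdgfra*. *Pdgfrb* was divided between SMC-like (63.2%, 47.1% and 60.2%) and fibroblast-like barcodes (36.4%, 51.8% and 38.6%). Cell numbers after dissociation are not those of the tissue, so these shares describe the suspensions.

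**Figure D5:**
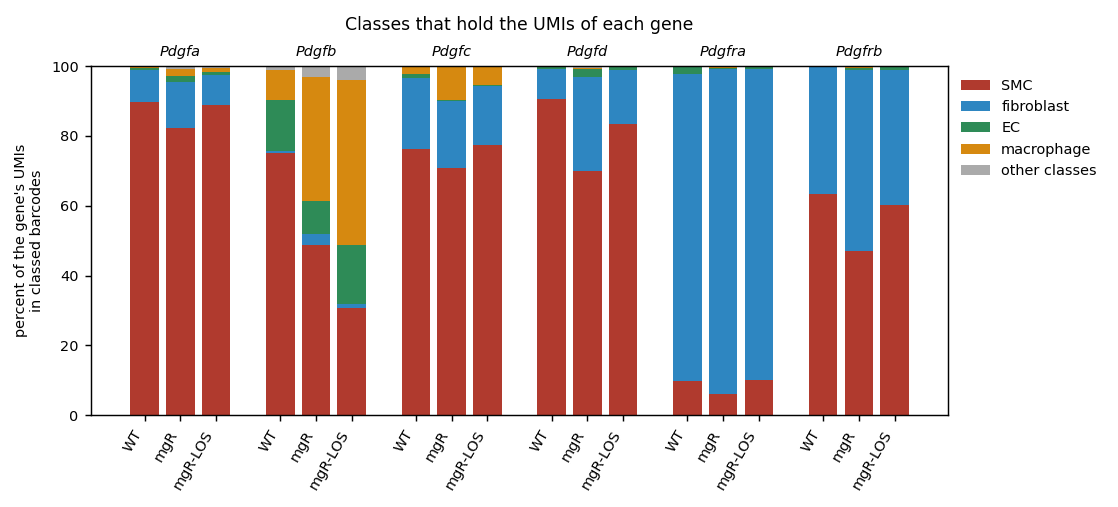
Share of the UMIs of each PDGF gene (percent of UMIs in classed barcodes) supplied by each cell class in the WT, mgR and mgR-LOS libraries, drawn as stacked bars from 0. For *Pdgfb* the SMC-like share was 75.1%, 48.8% and 30.6% and the macrophage-like share 8.66%, 35.6% and 47.2%. Macrophage-like barcodes were 1.67%, 12.9% and 4.56% of those in a class.

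The genes that act around these ligands were taken from 6 lists with 56 genes. The ligand-processing and binding list holds proteases that activate the ligands and proteins that bind them. The counts that follow use the rule above and stand against the same background shares. In SMC-like barcodes 4 of its 7 genes that reached 10 CPM were higher in mgR, none was lower, and 6 of 7 were lower in mgR-LOS than in mgR. *Thbs1*, a matrix protein that can bind PDGF, was at 16.1, 157 and 62.9 CPM, 9.80 times WT in mgR. *Plat*, the tissue plasminogen activator that cleaves PDGF-C, was at 34.2, 67.6 and 38.4 CPM. The proprotein convertase *Pcsk5* was at 18.9, 34.9 and 17.4 CPM. Like *Pdgfa*, *Pdgfb* and *Pdgfc* in SMCs, these 3 genes were highest in mgR. In fibroblast-like barcodes 0 of 7 were higher in mgR and 1 was lower (*Htra1*, a secreted serine protease, at 386, 203 and 217 CPM), and 1 of 7 was lower in mgR-LOS than in mgR (*Thbs1*, at 986, 1123 and 692 CPM).

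Among brakes on the receptors, 4 of 11 genes were higher in mgR SMCs and 5 of 11 in mgR fibroblasts, and none was lower in either. *Spry4*, which dampens signaling from receptor kinases to ERK, was at 7.16, 24.4 and 23.2 CPM in SMCs and at 16.6, 34.5 and 30.6 in fibroblasts. *Spry2* was at 16.5, 28.9 and 19.1 CPM in SMCs and at 40.9, 68.8 and 55.0 in fibroblasts, and the phosphatase *Ptpn2* at 28.2, 43.3 and 38.6 in SMCs. In fibroblasts *Spry1* was at 48.7, 91.5 and 68.7 CPM, the ERK phosphatase *Dusp6* at 11.9, 22.5 and 14.1 and the phosphatase *Ptpn1* at 32.0, 53.4 and 48.1. From mgR to mgR-LOS 1 of the 11 was lower in each class, *Spry2* in SMCs (0.663, 0.615 to 0.715) and *Dusp6* in fibroblasts (0.624, 0.547 to 0.712), whereas *Spry4* in mgR-LOS SMCs was at 0.948 of its mgR level (0.879 to 1.02).

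Adapters and kinases next to the receptors differed little, with 1 of 14 genes higher in mgR SMCs (*Pik3r1*, the regulatory subunit of PI3 kinase, at 47.7, 83.1 and 74.1 CPM) and 0 of 14 in fibroblasts in either direction. Of the co-receptors and relatives, 1 of 5 was higher in mgR SMCs (*Nrp1*, 13.9, 26.2 and 30.0 CPM). In fibroblasts *Nrp1* was higher (117, 211 and 219 CPM) and the receptor-like gene *Pdgfrl* lower (257, 119 and 159.6), and 1 of 5 was lower in mgR-LOS than in mgR (*Cspg4*, the proteoglycan NG2, at 35.2, 34.9 and 19.5, outside the naming rule and chosen after its value was seen). Of the VEGF genes, the nearest relatives of the PDGF ligands, 2 of 3 were higher in mgR SMCs, with *Vegfa* at 10.0, 21.9 and 12.4 CPM, and 1 of 5 in fibroblasts, *Vegfd*, at 48.5, 199.6 and 137. Of the genes that PDGF induces early in cultured cells, 2 of 7 were higher in mgR SMCs, *Klf4* (137, 263 and 288 CPM) and *Ier3* (121, 234 and 123), and 1 of 7 in fibroblasts, *Myc* (36.0, 56.1 and 38.2). The median ratio of mgR to WT over the 7 genes was 0.910 in SMCs and 1.16 in fibroblasts, so the list as a whole was not higher in mgR SMCs. *Klf4* differed from *Ier3* in that its mgR-LOS level was not lower than in mgR. Early genes are also induced when tissue is dissociated, and the part of that step was not tested.

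Levels of the PDGF genes were also compared over 18 populations, each a class of 1 library with at least 50 barcodes, on the log2(CPM + 1) scale. The points share libraries and differ in depth, so the coefficients describe these data. *Pdgfd* and *Pdgfrb* were the most alike pair of the 6 genes (Pearson r 0.88), followed by *Pdgfa* and *Pdgfd* (0.86) and the 2 receptors (0.79). *Pdgfb* was least like the receptor genes, with r of -0.38 to *Pdgfra* and -0.31 to *Pdgfrb*. Over 12072 genes, those most like *Pdgfa* were *Rasal2* (0.958), *Uaca* (0.947) and *Adgrl2* (0.941), and for *Pdgfb* *Ywhah* (0.868), *Smagp* (0.868) and *Scarb1* (0.863). For *Pdgfc* they were *Adcy9* (0.921), *Lmna* (0.914) and *Rab1a* (0.904), and for *Pdgfd* *Hspg2* (0.971), *Cavin1* (0.968) and *Htra1* (0.965). For *Pdgfra* they were *Dcn* (0.963), which is 1 of the fibroblast gating genes, *Bok* (0.955) and *Amy1* (0.947), and for *Pdgfrb* *Smarca1* (0.978), *Fam114a1* (0.978) and *Kazald1* (0.977). On the log2(CPM + 10) scale 1 of the 3 genes was kept for each PDGF gene except *Pdgfd*, for which 0 were.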

How the data were processed

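Single-cell libraries were prepared with the 10× Genomics 3′ v3.1 chemistry from pooled aortas. The deposited matrices hold raw UMI counts that the authors had aligned to GRCm38 (mm10). The file headers name Cell Ranger 5.0.1 for WT and mgR and 6.0.1 for mgR-LOS, while the submitters' processing notes name 6.0.1 for all. As in the study, barcodes under 600 or over 5000 detected genes were left out, as were those with more than 10% of UMIs from mitochondrial genes. No doublet caller was run here.

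A barcode joined a class when at least 3 genes of its marker list were detected and the list exceeded a gate, in UMIs per 10000, of 128 (SMC, fibroblast), 64 (neutrophil), 32 (macrophage) or 16 (other classes). Gates were set after the distributions had been seen. Barcodes passing several gates were kept out as mixed. The monocyte and dendritic cell gate was disregarded where the macrophage gate was passed, so these 2 gates together did not make a barcode mixed. Subsets needed list UMIs per 10000 of 8 (EC, macrophage) or 4 (fibroblast), and 32 for the pericyte list. EC and macrophage subsets also needed at least 2 genes of the list, and the pericyte list at least 3. EC subsets went to the list with the highest sum. A barcode without a subset list fell short of its limit or of its number of genes, and could still hold some of its UMIs. The pericyte list was applied to all barcodes that passed the filters. Counts were summed per class and library and scaled to CPM. Intervals at 95% were exact Poisson (levels), Clopper-Pearson (shares) or exact conditional binomial (ratios), and cover counting error only.

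Members, lists and settings were chosen with earlier results of these data known. The text names the 6 genes, the 3 genes most like each in log2(CPM + 1), and pathway genes past 1.5-fold between mgR and WT with at least 20 CPM in either library. 1 gene of the processing and binding list is not reported here and was left out of its counts. Gene positions came from GENCODE and promoter windows from RefSeq. The promoter tables matched *Pdgfa*, *Pdgfc*, *Pdgfd* and *Pdgfra*. Scripts were tested on simulated data. Alternatives covered Leiden clusters, doubled gates, filters, CPM scaling, the mean of barcode CPM, depth and thinning. Python 3.11.15, numpy 2.4.6, pandas 2.3.3, scipy 1.17.1, scikit-learn 1.9.0, igraph 0.11.9 and matplotlib 3.10.9 were used.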

Additional observations from a re-analysis of the deposited data

Results flagged for a closer look

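Ratios of 3 PDGF genes pointed in opposite directions in different cell classes under the same contrast. These differences were not tested, because each condition was 1 library. From mgR to mgR-LOS, *Pdgfb* was at 0.175 in SMC-like barcodes and at 1.21 in macrophage-like barcodes. From WT to mgR, *Pdgfd* was at 0.851 in SMC-like barcodes, 1.52 in fibroblast-like barcodes and 1.91 in EC-like barcodes. From mgR to mgR-LOS, *Pdgfrb* was at 0.789 in SMC-like and 0.817 in fibroblast-like barcodes and at 1.99 in EC-like barcodes. The pericyte list in mgR and mgR-LOS summed to 345 and 357 CPM in EC-like, 451 and 416 in fibroblast-like and 112 and 148 in SMC-like barcodes.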

How the results depend on the processing

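No paired analysis was possible because each condition was a single library. Of 8 PDGF ratios of at least 1.5-fold in SMC-like and fibroblast-like barcodes, 62 of 64 values under the alternatives stayed past that limit, and of 8 in EC-like and macrophage-like barcodes 55 of 56 did. The exceptions were *Pdgfd* in fibroblast-like barcodes from WT to mgR, which spanned 1.48 to 1.66, and *Pdgfc* in EC-like barcodes, which spanned 0.184 to 0.765. No ratio of this kind changed direction. With a mitochondrial limit of 5%, *Pdgfa* in SMCs was at 1.73 and *Pdgfc* at 3.43 from WT to mgR, and *Pdgfc* at 0.370 from mgR to mgR-LOS. Without the deepest 10% of barcodes the SMC ratios of mgR to WT were 1.52 for *Pdgfa* and 2.10 for *Pdgfb*, and the fibroblast ratio of mgR-LOS to mgR was 0.535 for *Pdgfc*. Without SMC-like and fibroblast-like barcodes that held UMIs of other lists, a choice made after seeing the data, *Pdgfb* in SMCs was at 0.145 and *Pdgfc* in fibroblasts at 0.483 from mgR to mgR-LOS.

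The background depended on the level filter. With no filter, genes at least 1.5-fold higher and lower were 15.0% and 13.4% in SMC-like barcodes from WT to mgR and 15.9% and 11.9% from mgR to mgR-LOS, and in fibroblast-like barcodes 12.3% and 16.4%, then 12.4% and 11.7%. The lower share of mgR to WT was 16% in EC-like and 16.1% in macrophage-like barcodes, and in macrophages the shares from mgR to mgR-LOS were 14.9% and 9.50%. With at least 50 CPM, EC-like shares were 8.26% and 4.05%, then 5.10% and 6.51%, macrophage-like shares of mgR to WT 5.47% and 3.15%, and the lower share from mgR to mgR-LOS 2.10%. The causes were not tested. Depth limits the EC-like receptors and *Pdgfc*, which rest on few UMIs, and counting intervals leave out the differences between cells and between mice.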

Other observations

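Barcodes that passed both the SMC and the fibroblast gate (46, 152 and 326 in WT, mgR and mgR-LOS) were in no class of the report. They held *Pdgfb* at 1.96 (0.0497 to 10.9), 28.5 (20.8 to 38.0) and 1.58 CPM (0.579 to 3.43), from 1, 46 and 6 UMIs, and *Pdgfa* at 90.4, 219 and 111 CPM. Both receptors were present, *Pdgfra* at 122, 82.3 and 146 CPM and *Pdgfrb* at 145, 196 and 139.5 CPM. Barcodes high in the pericyte list, taken from all that passed the filters and not from 1 class, held *Pdgfb* at 57.2 CPM in mgR and 124 CPM in mgR-LOS. In the monocyte and dendritic cell class *Pdgfb* was at 63.1, 29.0 and 32.6 CPM, from 4, 55 and 24 UMIs.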
